A study of Mus musculus with 20 samples.

Results

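Polysomal RNA, the mRNA that sedimented with several ribosomes in a sucrose gradient and so was being translated, was compared between day 7 and day 5 in the brain of mice with severe spinal muscular atrophy (SMA). Of the 45700 genes in the deposited table, 21943 were protein-coding genes of the nuclear genome, and 13012 of these had a mean of at least 1 FPKM (the fragments of a gene, scaled by its exon length and by the depth of the library) over the 5 SMA polysomal libraries. The 13004 of them that were also above 0 FPKM in all 5 libraries were tested. Among the 20 libraries of the series, 2 held SMA polysomal RNA of postnatal day 5, the early-symptomatic stage. SMA polysomal RNA of postnatal day 7, the late-symptomatic stage, gave 3 libraries. These "Taiwanese" SMA mice lack mouse Smn (Smn-/-) and carry human SMN2 as a transgene (SMN2tg/0), on an FVB background, in every cell. Control littermates were heterozygous for Smn and carried the same transgene, were killed on the same days and gave 2 and 3 polysomal libraries. No group was treated, and the whole brain was lysed, so the values average over all of its cell types. Each library is a numbered replicate, and neither the labels nor the study states how many brains it holds. Stage and age are the same thing in this comparison, and the labels do not tell whether the libraries of both days were prepared and sequenced together, so disease stage, normal growth and any processing by day cannot be told apart within SMA mice.

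SMA is caused by too little SMN, a protein that assembles the Sm core of splicing particles and also associates with ribosomes. The polysomal fraction is called the translatome because an mRNA loaded with ribosomes is in use for protein synthesis, whereas total cytoplasmic RNA also holds mRNA that is stored or idle. The first postnatal week of the mouse brain is a time when precursor divisions in most regions are ending, neurons build synapses and ion channels, glial cells mature and the first oligodendrocytes start to make myelin.

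Brain markers were present in all 5 libraries: Snap25 of presynaptic terminals lay between 238 and 402 FPKM, Aldoc of astrocytes between 177 and 292 FPKM and Csf1r of microglia between 9.6 and 14.3 FPKM. Markers of liver and muscle were low, with Alb at 0.03 FPKM or less and Ttn at 0.42 FPKM or less. By Xist and the Y-linked genes, each day had both sexes (day 5 replicate 1 and day 7 replicate 3 were female). The correlation of log2 values across the 13004 genes was 0.988 between the day 5 libraries, 0.988 to 0.991 among the day 7 libraries and 0.961 to 0.976 between days. FPKM values do not carry the number of reads behind a gene, and no counting error can be given for them. Genes above 0 FPKM numbered 25975 and 25907 in the day 5 libraries and 24883, 24834 and 23955 at day 7. In control polysomal libraries these numbers overlapped (24667 and 25365 against 24865, 23784 and 24113). The origin of the difference between days was not tested. Smn1, the mouse gene disrupted in this line, read 9.65 and 9.34 FPKM at day 5 and 13.1, 14.2 and 13.3 FPKM at day 7, a log2 change of 0.51 ± 0.09 (SE; adjusted p = 0.00724). The value is summed over the whole gene (chromosome 13, 100124852 to 100137690, GRCm38) and is no check of the genotype.

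The translatome changed widely over the 2 days. By limma with Benjamini-Hochberg adjustment over all 13004 genes, 2358 genes were higher and 1846 lower at day 7 at an adjusted p under 0.05, which is 18.1% and 14.2% of those tested. The values of the days did not overlap in 30.1% of genes towards higher and 31.2% towards lower values, called or not. Most changes were modest: the called genes had a median absolute log2 change of 0.515, and 281 higher and 83 lower genes changed by 1 or more on the log2 scale. The median of all tested genes was −0.01. The counts rested in part on single libraries. Leaving out 1 library at a time gave 1020 to 1966 higher genes and 387 to 1215 lower genes, and the lowest of each came without day 5 replicate 1, when replicate 2 alone stood for day 5.

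Among the 12 genes with the largest called increase (mean of at least 5 FPKM), several belong to maturing neurons. Cdk5r2 encodes p39, an activator of the neuronal kinase Cdk5, and read 5.87 and 6.72 FPKM at day 5 against 33.2, 30.6 and 31.6 FPKM at day 7 (log2 change 2.32 ± 0.09, adjusted p = 0.000237). Gng3, a G protein gamma subunit of neurons, read 33.1 and 49.1 FPKM at day 5 and 177, 171 and 184 FPKM at day 7 (2.13 ± 0.15, adjusted p = 0.000761). For both genes the lowest day 7 library was far above the highest day 5 library. Prrt1, which encodes a protein associated with AMPA receptors, rose from 1.36 and 1.92 FPKM to 9.41, 8.19 and 8.13 FPKM (2.33 ± 0.16). Tuba4a, an alpha-tubulin, rose from 66.0 and 68.8 FPKM to 270, 252 and 235 FPKM (1.90 ± 0.08). Tac2, the precursor of neurokinin B, changed by 1.83 ± 0.15. Pcdhgc5, a clustered protocadherin, changed by 2.12 ± 0.22, but its deposited locus is shared by 85 genes, and its reads may belong in part to its neighbours. Outside the nervous system's own genes the group held Mt1, a metallothionein that binds zinc (chromosome 8, 94179089 to 94180325), at 70.0 and 115 FPKM against 407, 316 and 321 FPKM (1.95 ± 0.21). It also held Uqcrq, a subunit of respiratory complex III (chromosome 11, 53427922 to 53430831), at 89.0 and 98.3 FPKM against 404, 271 and 341 FPKM (1.84 ± 0.16). Cic, a transcriptional repressor, changed by 1.82 ± 0.11, Lin37, a subunit of the DREAM complex that represses cell cycle genes, by 1.79 ± 0.18, and Zfp580 and Prr13 by 2.02 ± 0.12 and 1.87 ± 0.11.

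Of the 12 genes with the largest called decrease, 5 encode replication-dependent histones, which are made while DNA is copied. Hist1h4k (chromosome 13, 21750194 to 21750505) read 93.0 and 60.4 FPKM at day 5 and 15.8, 11.5 and 12.5 FPKM at day 7 (−2.50 ± 0.20, adjusted p = 0.00103). Hist2h3b fell from 15.3 and 11.3 FPKM to 0.93, 0.42 and 0.76 FPKM (−4.10 ± 0.30). Hist1h3b, Hist1h3h and Hist1h1b changed by −2.92 ± 0.48, −2.64 ± 0.44 and −1.47 ± 0.44. Histone genes have near-identical copies, so the split of reads among them is uncertain. Summed over all listed histone genes, the libraries held 3674 and 3375 FPKM at day 5 and 4364, 2964 and 2535 FPKM at day 7. The days overlapped in this sum. Lars2, the mitochondrial leucyl-tRNA synthetase, read 105 and 180 FPKM against 25.8, 12.2 and 8.03 FPKM (−3.33 ± 0.46), while in control polysomal RNA the same gene ran from 11.6 to 3652 FPKM among day 7 libraries. Cspp1, a centrosomal protein, read 27.7 and 21.3 FPKM against 8.27, 8.29 and 8.01 FPKM (−1.56 ± 0.12), and the adhesion receptor Adgra3 and the splicing-related Paxbp1 changed by −1.48 ± 0.25 and −1.40 ± 0.15. Gm10800 and Npcd changed by −2.15 ± 0.50 and −1.93 ± 0.33. Without day 5 replicate 1, Adgra3, Gm10800, Hist1h1b, Hist1h3b, Hist1h3h and Npcd missed the threshold. Gm10800 also missed it without day 5 replicate 2, and Hist1h1b without day 5 replicate 2 or day 7 replicate 1. The highest adjusted p over the leave-outs ran from 0.0505 (Hist1h3b) to 0.15 (Hist1h1b), and no direction changed.

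**Figure D1:**
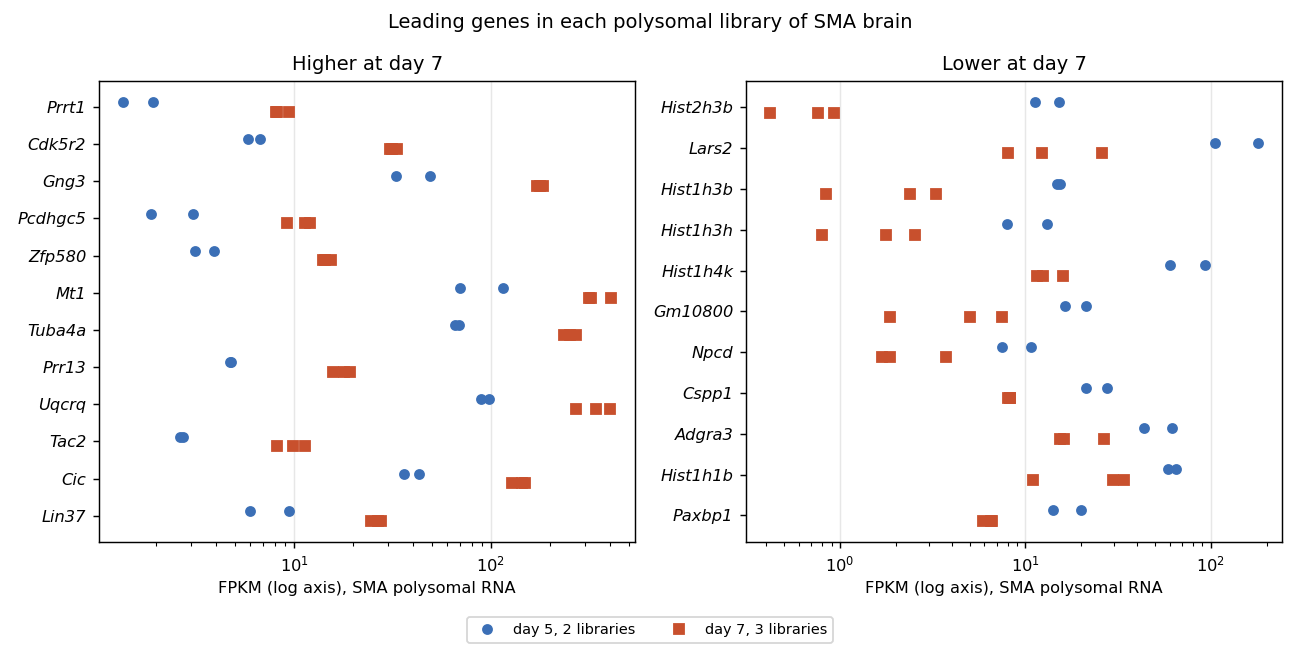
FPKM (log axis) of the 12 called genes with the largest increase (left) and 11 of the 12 with the largest decrease (right) in each SMA polysomal library, circles for day 5 (n = 2) and squares for day 7 (n = 3). The days do not overlap for any gene shown, as the rule that chose them required, and Cdk5r2, for example, stands at 5.87 and 6.72 FPKM at day 5 and at 30.6 to 33.2 FPKM at day 7.

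Most listed genes of the presynaptic terminal rose. Of 32 tested genes of synaptic vesicles and transmitter release, 24 were higher and 0 lower (75% against 18.1% of all genes), with a median log2 change of 0.55 against −0.01 over all genes. The other 8 did not pass. Vamp2, the vesicle SNARE of fast release, read 50.8 and 83.2 FPKM at day 5 and 164, 174 and 160 FPKM at day 7 (1.35 ± 0.19, adjusted p = 0.00399). Slc17a7, the vesicular glutamate transporter VGLUT1, read 31.8 and 28.9 FPKM against 92.2, 71.2 and 69.4 FPKM (1.34 ± 0.13), and Rab3a, a vesicle GTPase, 141 and 170 FPKM against 348, 332 and 353 FPKM (1.15 ± 0.10). Vamp2, Slc17a7 and Rab3a kept their call whichever library was left out. The SNARE Snap25 rose by 0.62 ± 0.08 and the calcium sensor Syt1 by 0.90 ± 0.11. In a bulk sample, more neurons or synapses and more mRNA on polysomes per neuron cannot be told apart.

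The 9 letters TTCAGCACC, part of the RE1 element bound by the neuronal repressor REST, were searched on both strands in RefSeq promoter windows of GRCm38.p6 (250 bases before to 50 after a start) and were found in 1 of 28 synaptic vesicle genes with a window (3.57%) against 0.57% of 9828 tested genes with one, a share that rests on that 1 gene. The letters also stood in 1 of 12 postsynaptic genes with a window, which was not called. Of the other lists, 1 of 20 receptor genes (Grm2), 1 of 38 translation factor genes and 1 of 65 respiratory chain genes had them. Each of these was called higher. Over all tested genes, 10 of 56 with the letters were higher at day 7 (17.9%), beside 18% of the 9828. The synaptic vesicle gene with the letters is Syn1, which encodes the vesicle protein synapsin I, shown on the strand of the gene with the letters in capitals.
Syn1 (chrX:20921131-20921160): cactgtcggaTTCAGCACCgcggtcagagc
Syn1 read 19.3 and 28.7 FPKM at day 5 and 45.5, 45.0 and 42.9 FPKM at day 7 (0.91 ± 0.16, adjusted p = 0.00746). A match of letters is a description, and the other promoters lack only these letters in this window.

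**Figure D2:**
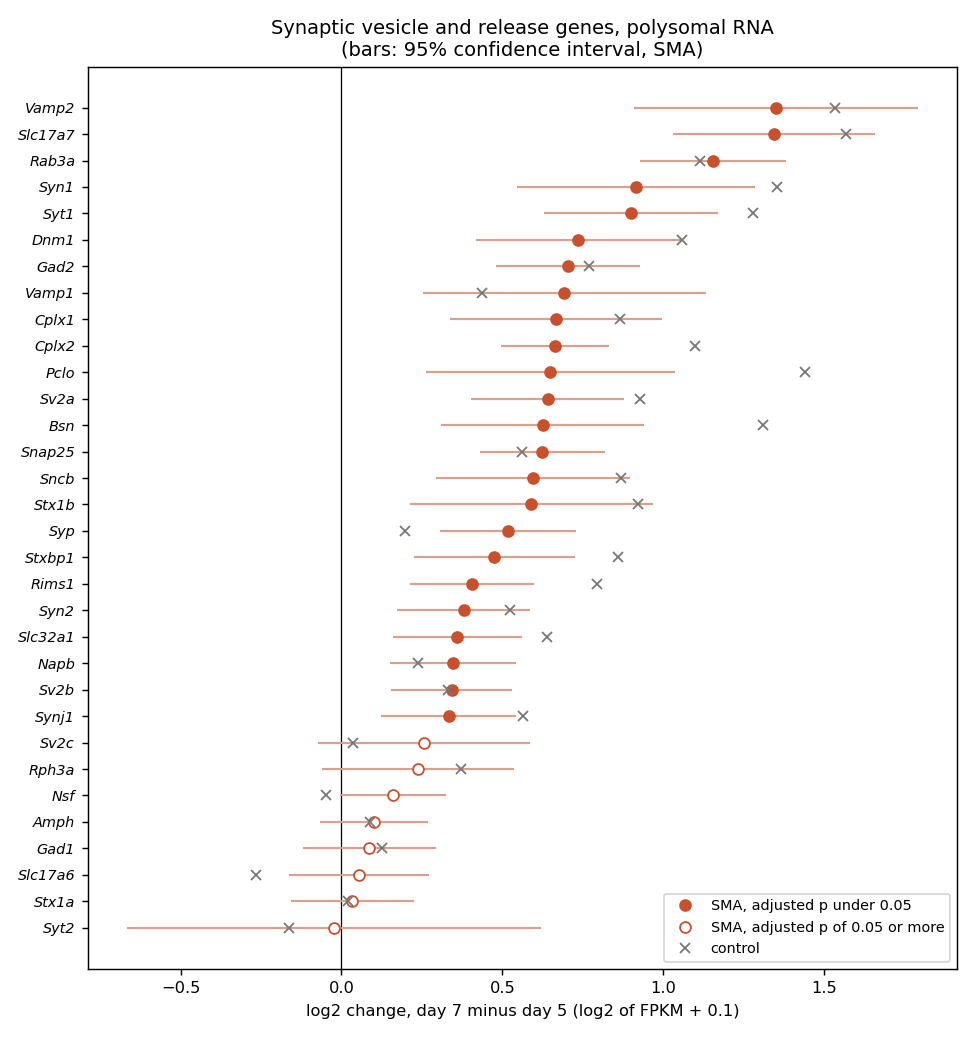
Log2 change from day 5 to day 7 of the 32 synaptic vesicle and release genes in polysomal RNA, circles for SMA (filled where the adjusted p was under 0.05, with 95% confidence intervals) and crosses for control. Of the SMA values 31 lie above 0, led by Vamp2 and Slc17a7, and the median control value (0.70) lies above the median SMA value (0.55).

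Postsynaptic, receptor and channel genes were also more often higher than lower, beside 18.1% higher and 14.2% lower over all genes. Of 23 postsynaptic density and plasticity genes, 14 were higher and 0 lower (60.9%, median 0.47). Ppp1r1b, the striatal phosphatase inhibitor DARPP-32, read 13.03 and 17.2 FPKM at day 5 and 58.7, 40.5 and 49.3 FPKM at day 7 (1.70 ± 0.18), and Nrgn, the calmodulin-binding neurogranin, rose by 1.62 ± 0.11 and Dlg4, the scaffold PSD-95, by 1.12 ± 0.12. Of 33 glutamate and GABA receptor genes, 17 were higher and 2 lower (51.5% and 6.06%, median 0.32). The GABA-A receptor subunit Gabrd rose by 0.97 ± 0.16 and the NMDA receptor subunit Grin1 by 0.94 ± 0.09. The 2 that fell were the kainate receptor subunit Grik2 (−0.47 ± 0.09) and the AMPA receptor subunit Gria4 (−0.37 ± 0.08). Of 34 voltage-gated channel, pump and chloride transporter genes, 17 were higher and 2 lower (50% and 5.88%, median 0.34). Scn4b, a sodium channel beta subunit, rose by 1.27 ± 0.29. Scn3a, a sodium channel of immature neurons, fell by 0.53 ± 0.11 on the log2 scale, and Slc12a2, the chloride importer NKCC1, by 0.38 ± 0.08. Slc12a5, the chloride exporter KCC2 and the counterpart of NKCC1, read 57.6 and 59.4 FPKM against 72.7, 78.2 and 75.1 FPKM (0.36 ± 0.07, adjusted p = 0.0114). It was named after its value was seen.

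These counts were lower without day 5 replicate 1, at 10 synaptic vesicle, 9 postsynaptic, 7 receptor and 7 channel genes, and without any other single library they were at least 17, 11, 10 and 14. Without day 5 replicate 1 the calls of Grik2, Gria4, Scn4b, Scn3a, Slc12a2 and Slc12a5 were lost, with adjusted p-values up to 0.116, and Slc12a2 was also lost without day 5 replicate 2.

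Cytoskeletal and growth-related neuronal genes were mixed. Of 19 neurofilament and neuronal cytoskeleton genes, 7 were higher and 2 lower (36.8% and 10.5%, against 18.1% and 14.2% of all genes). Their median of 0.16 turned to −0.09 after quantile normalization. The microtubule-associated Map1a read 31.6 and 35.5 FPKM against 109, 137 and 104 FPKM (1.78 ± 0.13), and the tubulin Tubb4a changed by 1.12 ± 0.16. Prph, the intermediate filament peripherin, changed by −0.96 ± 0.18 and the spectraplakin Dst by −0.70 ± 0.12. Of 29 genes of immature neurons and axon growth, 3 were higher and 2 lower (10.3% and 6.9%, both below the shares of all genes). The median was −0.03, and 0.03 and 0.07 without day 5 replicate 1 or day 7 replicate 1. Within this list the stathmins parted: Stmn2 read 727 and 829 FPKM at day 5 and 1507, 1609 and 1836 FPKM at day 7 (1.08 ± 0.11), whereas Stmn1 read 1481 and 1364 FPKM against 808, 938 and 1017 FPKM (−0.63 ± 0.11). Sox11, a transcription factor of young neurons, changed by −0.45 ± 0.12. The calls of Dst, Stmn1 and Sox11 were lost without day 5 replicate 1, and that of Sox11 also without day 5 replicate 2 or day 7 replicate 3 (adjusted p up to 0.172).

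Genes of several glial cell types were more often higher than lower. Of 20 tested microglia and complement genes, 12 were higher and 0 lower (60% against 18.1% higher over all genes, median 0.59). Fcer1g, a signalling adaptor of immune receptors, read 2.17 and 2.63 FPKM against 8.46, 6.59 and 5.97 FPKM (1.498 ± 0.17), the purinergic receptor P2ry12 changed by 1.11 ± 0.18 and the integrin Itgam by 1.10 ± 0.20. The summed level of the 21 listed microglia genes was 189 and 195 FPKM at day 5 and 236 to 313 FPKM at day 7. Of 28 astrocyte genes, 11 were higher and 1 lower (39.3% and 3.57%, median 0.32). The adhesion protein gene Hepacam read 7.44 and 11.8 FPKM against 25.9, 23.2 and 23.2 FPKM (1.36 ± 0.18), and the neurotensin receptor Ntsr2 and the pump subunit Atp1b2 rose by 1.36 ± 0.16 and 1.19 ± 0.28. Gfap, the filament of reactive and mature astrocytes, read 45.6 and 65.1 FPKM against 99.7, 78.0 and 61.9 FPKM, values that overlap (0.52 ± 0.22, adjusted p = 0.106).

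Myelin genes differed widely between libraries of the same day. Of 18 precursor genes, 7 were higher and 1 lower (38.9% against 18.1% higher over all genes, median 0.35), among them C1ql1 (1.00 ± 0.11) and the lineage transcription factors Sox10 (0.94 ± 0.18) and Nkx2-2 (0.82 ± 0.22). Of 25 tested myelin and mature oligodendrocyte genes, 6 were higher and 0 lower (24% against the same 18.1%), and the median of 0.48 ran from 0.20 without day 5 replicate 1 to 0.77 without day 5 replicate 2. Mag, a myelin-associated glycoprotein, read 7.13 and 13.3 FPKM at day 5 and 24.0, 29.7 and 14.1 FPKM at day 7. Day 7 replicate 3 therefore lay beside day 5 replicate 2, and Mag passed the threshold narrowly (1.14 ± 0.35, adjusted p = 0.0459). The summed level of the 30 listed genes was 316 and 503 FPKM at day 5 and 768, 663 and 450 FPKM at day 7. Myrf, the transcription factor that drives myelin genes, changed by 1.40 ± 0.38 and Tmem88b by 0.86 ± 0.24.

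The myelin count moved with single libraries, to 12 without day 7 replicate 3, 2 without day 7 replicate 1 or replicate 2, 9 without day 5 replicate 2 and 0 without day 5 replicate 1. The precursor count went to 3 and the astrocyte count to 4 without day 5 replicate 1, while the microglia count was at least 7 in every leave-out. Mag, Myrf and Tmem88b lost their calls in 3 of the 5 leave-outs each and Nkx2-2 in 4. P2ry12 lost its call without day 5 replicate 1, and Atp1b2 without that library or day 7 replicate 1.

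Of 38 cell cycle and mitosis genes, which mark dividing cells, 1 was higher, 8 were lower (21.1% against 14.2% of all genes) and 29 did not pass. The median was −0.55 and the lower count was 0 without day 5 replicate 1. Tk1, the thymidine kinase of S phase, read 3.94 and 4.34 FPKM at day 5 and 1.98, 2.12 and 1.31 FPKM at day 7 (−1.18 ± 0.21). Cdc20, which activates the anaphase-promoting complex, changed by −1.15 ± 0.33 and Prc1, which bundles microtubules of the midzone, by −1.06 ± 0.27. Values at day 7 were uneven, as Top2a, the topoisomerase of dividing cells, shows: it read 6.14 and 7.12 FPKM at day 5 and 4.09, 6.17 and 1.71 FPKM at day 7 (−0.89 ± 0.46, adjusted p = 0.174). Day 7 replicate 3 was the lowest library, with 174 FPKM summed over the 40 listed genes, while replicates 1 and 2 held 234 and 259 FPKM and the day 5 libraries 298 and 287 FPKM. Ccne1, the cyclin of S-phase entry, was the 1 gene that was higher (0.36 ± 0.11).

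Cell cycle genes are known for shared promoter elements, and the windows that hold one of them are shown to place the letters beside each gene's change. In RefSeq promoter windows of GRCm38.p6, which run from 250 bases before to 50 after a start, the 8 letters TTTCGCGC of an E2F site were found on either strand in 4 of 30 genes of the list with a window (13.3%) against 0.712% of 9828 tested genes with one. The 6 letters TTTGAA of the cell cycle homology region were found in 13 of 30 (43.3%) against 13.4%. Over all tested genes, 6 of 70 with the E2F letters (8.57%) and 205 of 1318 with TTTGAA (15.6%) were higher, beside 18% of the 9828. How many genes with either set of letters were lower was not counted. The 4 windows with the E2F letters follow on the strand of the gene, with the letters in capitals.
Cdk1 (chr10:69353025-69353054): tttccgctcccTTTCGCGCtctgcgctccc
Mcm5 (chr8:75109345-75109374): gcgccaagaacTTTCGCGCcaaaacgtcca
Mcm6 (chr1:128359793-128359822): gtatgcttttgGCGCGAAAagtgcgtgcgg
Mcm7 (chr5:138171849-138171878): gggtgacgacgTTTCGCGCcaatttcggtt
Cdk1 encodes the mitotic kinase, and the Mcm genes encode subunits of the helicase that opens replication origins. Mcm6 read 10.2 and 9.39 FPKM at day 5 and 5.55, 7.41 and 4.64 FPKM at day 7 (−0.75 ± 0.19, adjusted p = 0.0234), and Mcm7 changed by −0.49 ± 0.13 (adjusted p = 0.0279). Mcm5 (−0.47 ± 0.27, adjusted p = 0.21) and Cdk1 (−0.38 ± 0.32, adjusted p = 0.388) did not pass. A match of letters is a description and no evidence of binding.

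Histone genes gave a wider range than the cell cycle list. Of 55 tested replication-dependent histone genes (65 listed), 2 were higher and 8 lower, and the lower share of 14.5% was near the 14.2% of all genes. The median of −0.28 became −0.67 after correction for transcript length and GC content, −0.0075 without day 7 replicate 3 and −0.61 without day 7 replicate 1. Their median transcript length was 572 bases. The 2 that rose were Hist2h3c2 (1.57 ± 0.22), at under 2.1 FPKM in every library, and Hist2h4 (0.56 ± 0.12). Hist2h4 lost its call without either day 5 library (0.45 to 0.63 over the leave-outs). Neural progenitor genes were mixed, with 2 higher and 5 lower of 20 (10% and 25%, median −0.09). Nes and Vim, filaments of radial glia and progenitors, fell, Nes from 4.79 and 3.73 FPKM to 1.55, 2.50 and 1.69 FPKM (−1.13 ± 0.23) and Vim from 91.2 and 101 FPKM to 42.0, 60.0 and 35.4 FPKM (−1.10 ± 0.20). Fabp7, the brain lipid-binding protein, changed by −0.57 ± 0.09, and the transcription factor Hes5 by 0.90 ± 0.12. Without day 5 replicate 1, 0 cell cycle, 3 histone and 2 progenitor genes were lower. Without day 5 replicate 2 the cell cycle count was 1 and without day 7 replicate 1 it was 3, while without day 7 replicate 2 it was 14. The histone count was 5 without day 5 replicate 2 and 15 without day 7 replicate 1, and the progenitor median was 0.05 without day 7 replicate 3. Cdc20, Prc1, Mcm6 and Mcm7 lost their calls without either day 5 library or day 7 replicate 1, Mcm7 also without day 7 replicate 3, and Ccne1 in every leave-out. Nes, Vim and Tk1 lost theirs without day 5 replicate 1 (adjusted p up to 0.0886).

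Of 35 collagen and extracellular matrix genes, 2 were higher and 8 lower (5.71% and 22.9%, against 18.1% and 14.2% of all genes), and the median was −0.23. Col3a1, a fibrillar collagen, read 27.1 and 27.6 FPKM against 10.3, 21.5 and 15.4 FPKM (−0.86 ± 0.27), and the basement membrane collagens Col18a1 and Col4a1 changed by −0.78 ± 0.24 and −0.66 ± 0.20, whereas the matrix protein Mgp changed by 1.11 ± 0.12. The count of lower matrix genes was 0 without day 5 replicate 1, 1 without day 5 replicate 2 or day 7 replicate 3, 4 without day 7 replicate 1 and 11 without day 7 replicate 2, and the 3 collagens lost their calls in 3 or 4 leave-outs each. Of 20 endothelial and angiogenesis genes, 3 were higher and 2 lower (15% and 10%). The median was −0.06, and 0.0096 without day 5 replicate 1. Plvap, a protein of fenestrated endothelium, changed by 0.90 ± 0.12 and Ly6c1 by 0.82 ± 0.16. Ly6c1 lost its call without either day 5 library (log2 change 0.66 to 0.92 over the leave-outs). The angiogenic ligand Angpt2 and the VEGF receptor Kdr changed by −0.72 ± 0.20 and −0.54 ± 0.16 and lost their calls in 4 leave-outs each. Of 18 blood-brain barrier genes, 5 were higher and 2 lower (27.8% and 11.1%). The median was 0.07, and −0.06 without day 5 replicate 2. The Wnt effector Lef1 changed by 1.16 ± 0.23 and the glycoprotein Bsg by 0.67 ± 0.07. Lef1 lost its call without day 5 replicate 1 (0.95 to 1.33 over the leave-outs). Of 14 pericyte and vascular smooth muscle genes, 0 were higher and 1 lower (median −0.20), which is below the share of lower genes overall.

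Genes of blood and of tissues around the brain were checked because they can enter with the dissection. Haemoglobin and erythroid genes had a median of 0.01 over 10 tested genes, and Hbb-bs read 541 and 1260 FPKM at day 5 and 1053, 739 and 710 FPKM at day 7 (−0.01 ± 0.34). Summed erythroid RNA was lowest in day 5 replicate 1 (1095 FPKM) and lay between 1795 and 2719 FPKM in the other 4 libraries. Neutrophil granule genes were summed to 60.1 FPKM in day 7 replicate 1 and to between 12.03 and 17.6 FPKM elsewhere. The part of these differences in the results was not tested. Of 13 choroid plexus genes, 1 was higher and 0 lower (7.69% and 0%, against 18.1% and 14.2% of all genes). Ttr, which this tissue secretes in bulk, read 912 and 1037 FPKM at day 5 and 1092, 981 and 814 FPKM at day 7 (−0.03 ± 0.13, adjusted p = 0.9).

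Respiratory chain genes were among the most changed lists. Of 78 genes of the respiratory chain and ATP synthase, 48 were higher and 4 lower (61.5% and 5.13%, against 18.1% and 14.2% of all genes). The median was 0.36. Uqcrq led the list, followed by Sdhc, the membrane anchor of complex II, which read 233 and 244 FPKM at day 5 and 583, 572 and 527 FPKM at day 7 (1.23 ± 0.08). Atp5k, subunit e of ATP synthase, read 533 and 564 FPKM against 1322, 1069 and 1125 FPKM (1.09 ± 0.11). Among the 4 that fell, Sdha, the flavoprotein of complex II, changed by −0.57 ± 0.11, the complex III core protein Uqcrc1 by −0.34 ± 0.07 and the complex I subunit Ndufs1 by −0.27 ± 0.08. The group has short transcripts (median 1135 bases), and short transcripts were higher as a class at day 7, so the length comparison below belongs beside it. After correction for length and GC content the median was 0.20, with 33 higher and 4 lower (2338 and 1953 of all genes). After quantile normalization 32 were higher and 10 lower (2146 and 2197 of all genes). The count of higher genes was 29 without day 5 replicate 1 and at least 37 in the other leave-outs. Sdha and Uqcrc1 lost their calls without day 5 replicate 1 and Ndufs1 in every leave-out.

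The 10 letters of the site of NRF1, a regulator of nuclear genes for mitochondrial proteins, were searched on both strands. The letters, in capitals in the windows that follow, stood in 5 of 65 genes of this group with a promoter window (7.69%). Over all 9828 genes with a window the share was 2.29%. The windows are shown for the 4 genes whose mRNA was higher at day 7, on the strand of the gene. Over all tested genes, 27 of 225 with the letters were higher (12%), fewer than the 18% of the 9828 genes with a window.
Atp5k (chr5:108434430-108434459): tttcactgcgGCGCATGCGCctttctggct
Cox6a1 (chr5:115349101-115349130): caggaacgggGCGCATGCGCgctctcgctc
Ndufa11 (chr17:56717692-56717721): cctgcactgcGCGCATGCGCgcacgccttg
Atp5g2 (chr15:102671070-102671099): ggctccggccGCGCATGCGCagagccttcc
Cox6a1, a subunit of cytochrome oxidase, read 300 and 268 FPKM at day 5 and 600, 490 and 536 FPKM at day 7 (0.93 ± 0.11), and Ndufa11 of complex I and Atp5g2, an ATP synthase subunit c gene, both changed by 0.46 ± 0.08. Uqcrc1, the 1 remaining gene with these letters, was among those that fell, so the letters were present on both sides.

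Other metabolic lists were close to balance. Of glycolysis genes 14.3% were called higher and 14.3% lower, and of cholesterol genes 13.8% and 13.8%. The shares were 21.1% and 10.5% of hypoxia genes, 10% and 10% of p53 targets and 18.1% and 14.2% of all genes. Of 21 glycolysis and lactate genes, 3 were higher and 3 lower. Pfkp, the platelet-type phosphofructokinase, read 173 and 137 FPKM against 66.8, 68.4 and 57.4 FPKM (−1.26 ± 0.12) and kept its call in every leave-out, and the liver-type Pfkl changed by −0.61 ± 0.12 and the pyruvate dehydrogenase kinase Pdk1 by −0.65 ± 0.10. Ldhb, a lactate dehydrogenase subunit, changed by 0.57 ± 0.11, and Gapdh, often used as a reference gene, by 0.54 ± 0.11. Of 29 cholesterol genes, 4 were higher and 4 lower, with the last enzyme of the pathway, Dhcr7, at 0.70 ± 0.11 and the demethylase Cyp51 at −0.49 ± 0.08. Of 19 hypoxia genes, 4 were higher and 2 lower, and of 20 p53 target genes, 2 and 2, with the cell cycle inhibitor Cdkn1a at 13.2 and 15.9 FPKM against 23.3, 24.5 and 21.1 FPKM (0.66 ± 0.11) and Zmat3 at 0.94 ± 0.13. The genes higher without day 5 replicate 1 were 0 of glycolysis, 2 of cholesterol and 1 of hypoxia, and Pfkl, Ldhb and Gapdh lost their calls (adjusted p up to 0.062). Without day 7 replicate 1 or 2, 1 cholesterol gene was lower.

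The translation machinery itself did not move as a block. Of 82 cytosolic ribosomal protein genes, 30 were higher and 8 lower (36.6% and 9.76%, against 18.1% and 14.2% of all genes), with a median of 0.11. After quantile normalization the median was −0.08, with 13 higher and 25 lower, beside 2146 and 2197 of all 13004 genes. After length and GC correction the median was −0.02. Rps29 read 359 and 373 FPKM at day 5 and 1219, 1012 and 1204 FPKM at day 7 (1.64 ± 0.10), and Rps15a and Rpl31 changed by 0.99 ± 0.09 and 0.72 ± 0.09. Rpl28 went the other way, from 301 and 363 FPKM to 145, 152 and 135 FPKM (−1.20 ± 0.10), as did Rpl35 (−0.59 ± 0.07) and Rps14 (−0.45 ± 0.08). Ribosomal protein genes have many processed copies in the genome, and reads may be shared with them. Without day 5 replicate 1, 18 were higher and 2 lower, without day 7 replicate 3 the lower count was 4, and the call of Rps14 was lost (adjusted p = 0.0591).

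Of 50 translation factor genes, 6 were higher and 7 lower (median −0.08), of 20 aminoacyl-tRNA synthetase genes 0 and 4 (median −0.17) and of 30 ribosome biogenesis genes 3 and 7 (median −0.22). Eif3k and Eif6, which encode an initiation factor subunit and a factor that holds large subunits apart from small ones, changed by 0.50 ± 0.07 and 0.41 ± 0.08. Eef2k, the kinase that inhibits elongation factor 2, changed by −0.53 ± 0.11 and Eef1d, an exchange factor subunit, by −0.43 ± 0.08. The tyrosyl-tRNA synthetase Yars read 54.9 and 57.6 FPKM against 39.7, 37.7 and 40.1 FPKM (−0.52 ± 0.07), and the ribosome assembly factors Tsr1 and Ebna1bp2 changed by −0.56 ± 0.09 and −0.54 ± 0.08. The shares of lower genes in these lists (14%, 20% and 23.3%) stood beside 14.2% over all genes, and those of higher genes (12%, 0% and 10%) beside 18.1%. Eif6 and Eef2k lost their calls without day 5 replicate 1, and that library's absence left 2 translation factor, 1 synthetase and 2 biogenesis genes lower.

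Of 21 genes of the SMN complex and Sm proteins, 6 were higher and 3 lower (28.6% and 14.3%, against 18.1% and 14.2% of all genes). The median of 0.07 was −0.03 both without day 5 replicate 2 and without day 7 replicate 1. Snrpg, a small Sm core protein, read 183 and 173 FPKM against 327, 305 and 276 FPKM (0.76 ± 0.09), and Snrpd1 changed by 0.49 ± 0.07. The helicase Ddx20 (Gemin3), the Cajal body protein Coil and the assembly protein Strap changed by −0.41 ± 0.10, −0.37 ± 0.09 and −0.28 ± 0.07 and lost their calls in at least 4 of the 5 leave-outs each. Of 29 integrated stress and unfolded protein response genes, 9 were higher and 5 lower (31% and 17.2%), with Atf5, a stress-induced transcription factor, at 3.76 and 3.57 FPKM against 8.84, 7.96 and 9.03 FPKM (1.21 ± 0.10), the chaperone Dnajb9 at 0.93 ± 0.13 and Phgdh, the first enzyme of serine synthesis, at −0.70 ± 0.12. Of 19 heat shock chaperone genes, 3 were higher and 1 lower (15.8% and 5.26%), with Cryab at 1.32 ± 0.11 and Fkbp4 at −0.58 ± 0.09. Of 31 proteasome genes, 2 were higher and 2 lower (6.45% each way). Psmb2 changed by 0.74 ± 0.07 and Psma3 by 0.67 ± 0.10. Psmd12 and Psma7 changed by −0.24 ± 0.07 and −0.23 ± 0.07 and lost their calls in every leave-out. The stress list had 5 higher and 1 lower genes without day 5 replicate 1, the SMN list 4 and 0 and the heat shock list 1 and 1.

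**Figure D3:**
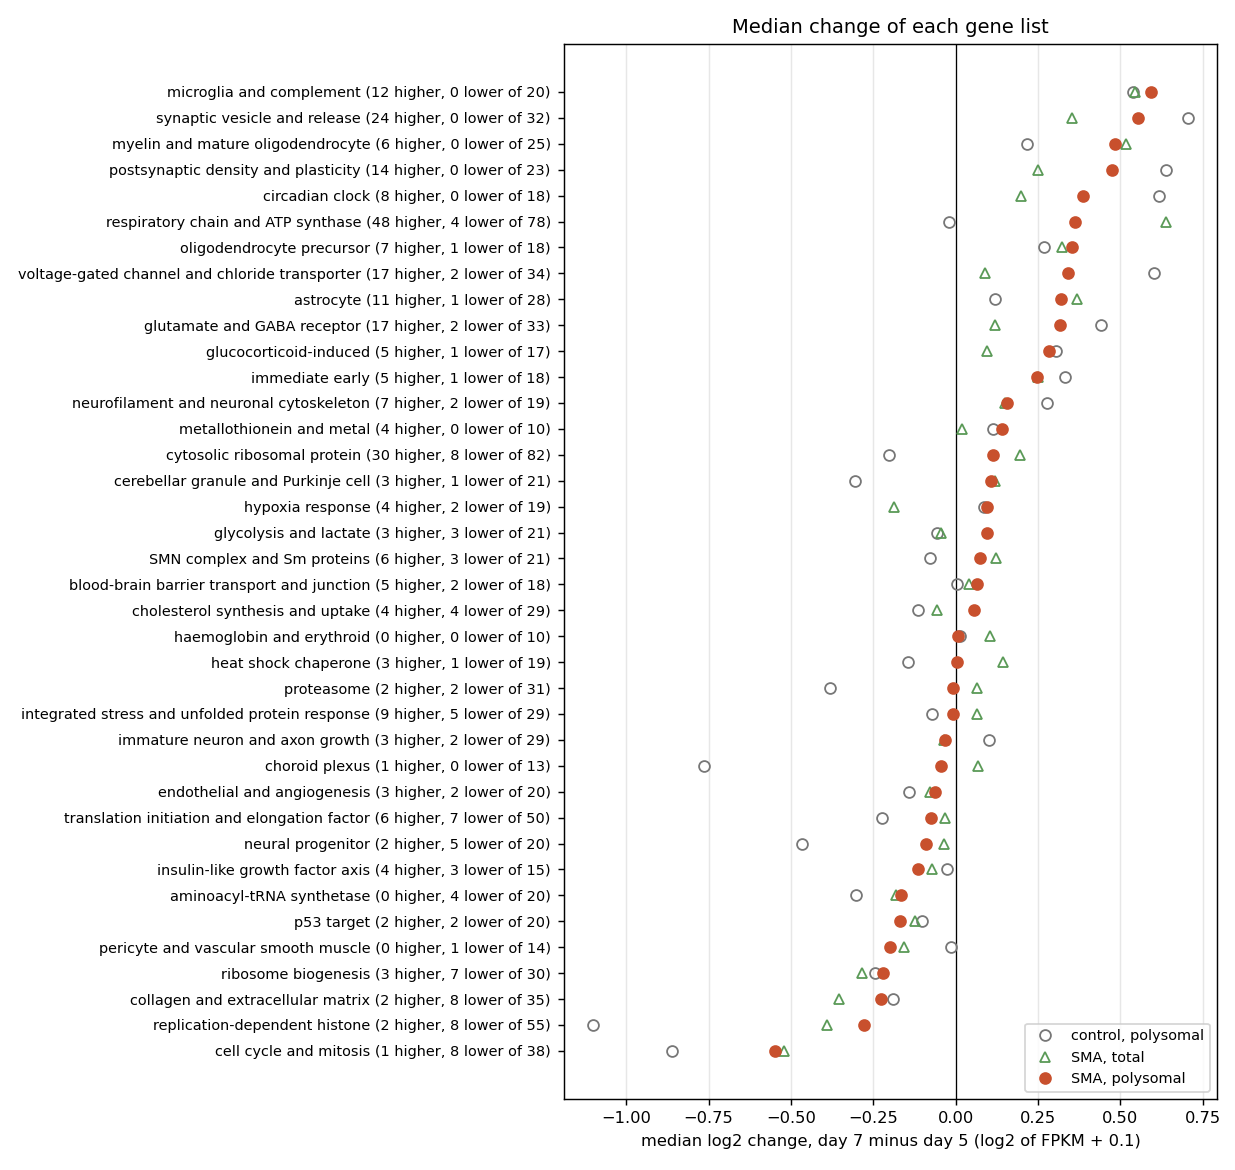
Median log2 change from day 5 to day 7 of the 38 gene lists with at least 10 tested genes, with the number of genes called higher and lower in SMA polysomal RNA beside each name. Filled circles are SMA polysomal, open circles control polysomal and triangles SMA total RNA. Microglia and synaptic vesicle genes stand at the top (0.59 and 0.55) and cell cycle genes at the bottom (−0.55), and for histone and choroid plexus genes the control value lies far below the SMA value.

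Of 18 tested immediate early genes, which neuronal activity induces, 5 were higher, 1 was lower and 12 did not pass (27.8% higher against 18.1% of all genes, median 0.25). Egr1 read 1.63 and 2.04 FPKM against 6.57, 5.31 and 7.80 FPKM (1.77 ± 0.18), Egr3 rose by 1.56 ± 0.17 and the phosphatase Dusp1 by 1.24 ± 0.13. Fos (0.21 ± 0.16, adjusted p = 0.351) and Arc (0.32 ± 0.21, adjusted p = 0.266), the best known of the group and named after their values were seen, did not pass. Of 18 circadian clock genes, 8 were higher, 0 lower and 10 did not pass (44.4% higher, median 0.38). Npas2, a partner of the clock activator, read 1.61 and 2.2 FPKM against 5.10, 5.06 and 5.05 FPKM (1.38 ± 0.15), and the repressors Bhlhe41 and Bhlhe40 rose by 1.06 ± 0.19 and 1.01 ± 0.14. The output factor Dbp changed by 0.71 ± 0.18 and Per1 by 0.72 ± 0.12, while Arntl, the clock activator itself, changed by −0.10 ± 0.08 (adjusted p = 0.385). The labels give no hour of death, so the time of day of the groups cannot be told apart from their age. Bhlhe41 lost its call without day 5 replicate 1 and Dbp without either day 5 library, and the clock count was 4 without day 5 replicate 1.

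The 6 letters CACGTG form the E-box, the element through which the clock activator works. They were found in 5 of 16 clock genes with a promoter window (31.2%) against 11.8% of the 9828 genes. Over all tested genes, 18.4% of those with the letters were higher, beside 18% of the 9828. They are shown for the 2 of these genes that were higher at day 7.
Per1 (chr11:69098771-69098800): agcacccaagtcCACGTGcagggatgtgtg
Bhlhe41 (chr6:145865556-145865585): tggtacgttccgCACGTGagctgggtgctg
The other 3 genes with the letters did not pass, with Ciart at 0.47 ± 0.18, Tef at 0.26 ± 0.17 and Cry1 at −0.10 ± 0.09.

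Smaller groups held single strong members. The shares called higher and lower were 29.4% and 5.88% of glucocorticoid-induced and 40% and 0% of metal genes. They were 26.7% and 20% of growth factor axis, 14.3% and 4.76% of cerebellar and 18.1% and 14.2% of all genes. Of 17 glucocorticoid-induced genes, 5 were higher and 1 lower, with Klf9 at 15.6 and 14.9 FPKM against 29.3, 22.4 and 24.7 FPKM (0.73 ± 0.12) and Tsc22d3 at −0.24 ± 0.07, which lost its call in every leave-out. Of 10 metal genes, 4 were higher and 0 lower: beside Mt1, the brain metallothionein Mt3 read 95.04 and 117 FPKM against 248, 235 and 233 FPKM (1.18 ± 0.10) and Mt2 changed by 0.83 ± 0.21. Of 15 genes of the insulin-like growth factor axis, 4 were higher and 3 lower. Igfbp5 changed by 0.74 ± 0.10 and Igfbp2 by −0.87 ± 0.07, 2 binding proteins in opposite directions, Igfbp2 from 116 and 119 FPKM to 61.4, 66.2 and 65.9 FPKM. Of 21 cerebellar granule and Purkinje cell genes, 3 were higher and 1 lower, with the granule cell transcription factor Zic4 at −0.82 ± 0.16, which lost its call without day 5 replicate 2. Glucocorticoid genes called higher were 3 without day 5 replicate 1, when 1 gene of the growth factor axis was higher and 1 lower. Mt2 lost its call without day 5 replicate 1, day 7 replicate 2 or day 7 replicate 3.

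Control littermates show the change over the same 2 days in mice with 1 Smn allele. In control polysomal RNA 2309 genes were higher and 2426 lower of 12987 tested (17.8% and 18.7%). Across the 12824 genes tested in both genotypes the log2 changes had a Pearson's r of 0.786, a description over genes that are not independent and that share length and base composition, from libraries that the genotypes do not share. Of 2331 genes called higher in SMA and tested in control, 2181 had a positive control change, and of 1828 called lower 1725 had a negative one. The synaptic vesicle genes had a control median of 0.70 and the clock genes one of 0.62. Egr1, for example, changed by 2.17 in control and 1.77 in SMA, and Cdk5r2 by 2.45 and 2.32.

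**Figure D4:**
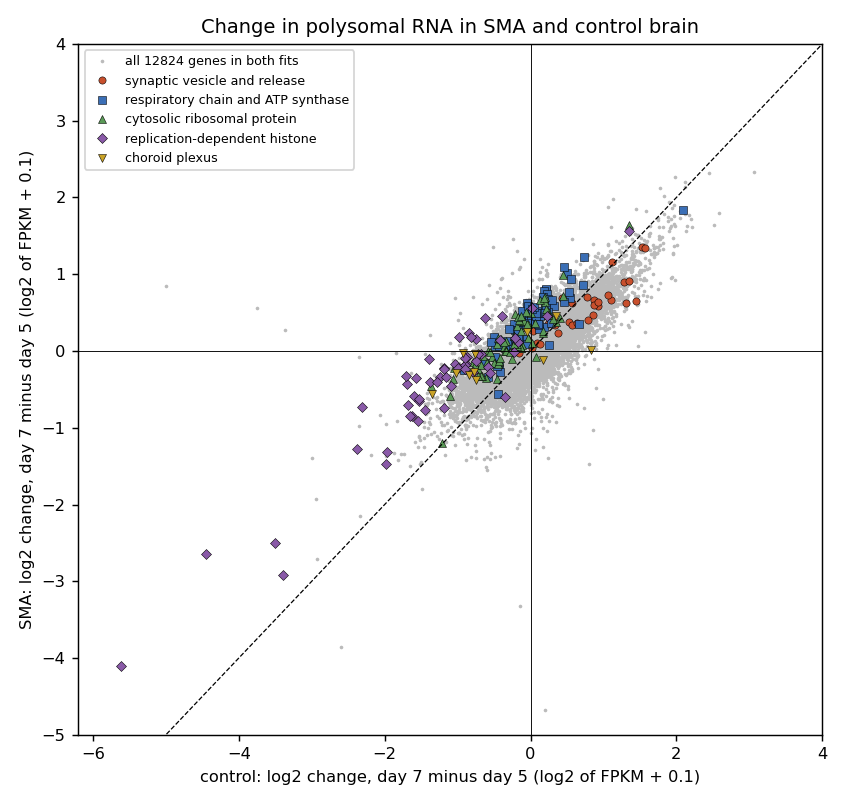
Log2 change from day 5 to day 7 in polysomal RNA of control (x axis) and SMA brain (y axis) for 12824 genes, with 5 gene lists marked and the dashed line at equal change. Genes spread along the line, histone genes reach further down in control than in SMA, and most choroid plexus genes lie left of 0 in control and near 0 in SMA.

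A direct test of the difference, the interaction of stage and genotype in the 10 polysomal libraries, gave 0 of 12968 genes at an adjusted p under 0.05 (0% in either direction, smallest adjusted p = 0.303) and 1803 at an unadjusted p under 0.05 (13.9%). The count depended on the control libraries: it was 342 towards SMA and 132 towards control without control day 5 replicate 2, 2 and 0 without control day 5 replicate 1, and 0 and 1 without SMA day 5 replicate 1. Both control day 5 libraries were male while control day 7 held 2 females and 1 male, a difference whose part was not tested. At the unadjusted threshold, where 8.22% of genes had a higher change in SMA and 5.68% a lower one, 7 of the lists with at least 10 genes had 20% or more of their members past it towards SMA. They were 48 of 81 ribosomal protein, 47 of 77 respiratory chain, 16 of 31 proteasome, 5 of 12 choroid plexus, 6 of 21 SMN complex, 15 of 55 histone and 7 of 29 stress response genes. Towards control 1 list did, with 8 of 34 channel genes (23.5%). The limit of 20% was chosen after the values were seen. After length and GC correction these were 10, 11, 4, 6, 2, 7, 2 and 4 genes, against 4.36% of all genes higher and 4.43% lower. Without control day 5 replicate 1 they were 30, 30, 8, 2, 3, 7, 1 and 6 genes (3.44% of all genes higher and 3.37% lower), and without control day 5 replicate 2 they were 51, 57, 23, 5, 8, 11, 10 and 7 (15.8% and 9.42%). Respiratory chain genes had a control median of −0.02 beside 0.36 in SMA, and ribosomal protein genes −0.20 beside 0.11. Quantile normalization moved median differences from 0.36 to 0.11 for ribosomal protein, 0.39 to 0.17 for respiratory chain and 0.35 to 0.16 for proteasome genes. For choroid plexus, histone and channel genes they went from 0.52, 0.80 and −0.19 to 0.53, 0.70 and −0.21. The all-gene median went from 0.03 to −0.01. Nuclear protein-coding genes held 83.1% of the FPKM in control day 5 replicate 1 and 71.4% to 77.5% in other polysomal libraries. The part of this difference was not tested.

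Ttr, the choroid plexus gene described above, is an example. In control polysomal RNA it read 977 and 956 FPKM at day 5 and 564, 509 and 455 FPKM at day 7, so the days did not overlap, while the SMA libraries of the days overlapped. The SMA change exceeded the control change by 0.90 on the log2 scale (95% confidence interval 0.48 to 1.33, unadjusted p = 0.000682, adjusted p = 0.303). Folr1, the folate receptor of the choroid plexus, had a difference of 0.72 (0.26 to 1.18). Summed over the 14 listed choroid plexus genes, SMA libraries held 899 to 1200 FPKM at either day and control libraries 1044 and 1066 FPKM at day 5 and 526 to 639 FPKM at day 7. On the other side, the active zone scaffolds Pclo and Bsn changed less in SMA than in control, by −0.79 (−1.25 to −0.34) and −0.69 (−1.12 to −0.26), and Per1 by −0.72 (−1.21 to −0.23). None of these passed the adjusted threshold. Ttr, Folr1, Pclo and Bsn were chosen after their differences were seen.

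**Figure D5:**
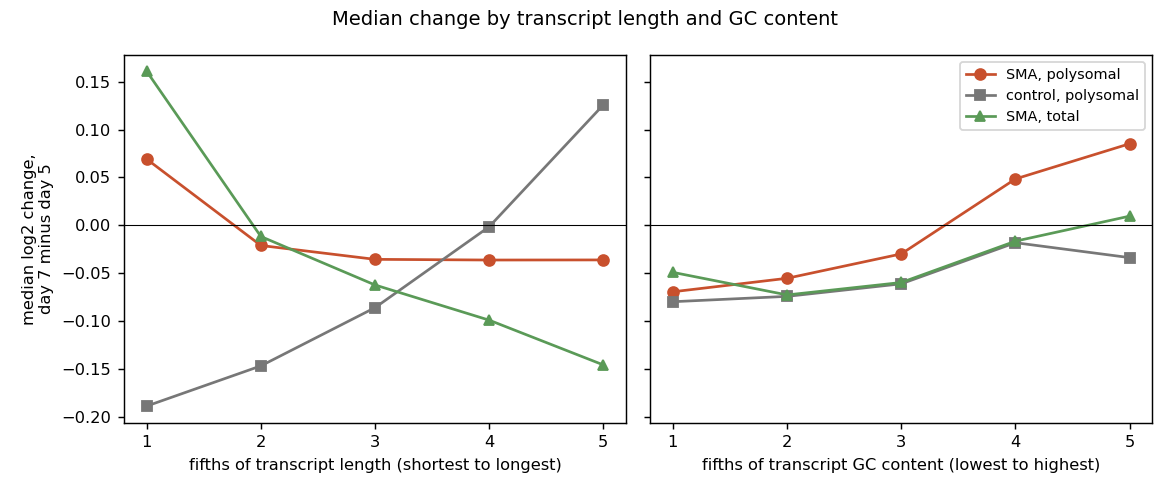
Median log2 change from day 5 to day 7 in 5 bins of near-equal size of the tested genes by transcript length (left) and by transcript GC content (right), in SMA polysomal, control polysomal and SMA total RNA. The bin of the shortest transcripts was highest in both SMA fractions (0.07 and 0.16) and lowest in control (−0.19), and the SMA polysomal median rose with GC content from −0.07 to 0.09.

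Transcript length went with the contrast between genotypes. Of 5 bins of near-equal size, the one with the shortest transcripts (165 to 2023 bases) had a median change of 0.07 in SMA polysomal, 0.16 in SMA total and −0.19 in control polysomal RNA, and the bin with the longest −0.04, −0.15 and 0.13. In SMA polysomal RNA 23.6% of the shortest bin were called higher and 9.05% lower, against 15.5% and 17.1% of the longest. GC content moved with the SMA change as well: 11.3% of the bin with the lowest content were higher and 26.1% of the bin with the highest. The origin of these trends was not tested.

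Comparison with total cytoplasmic RNA of SMA brains of the same days asked whether ribosome loading changed beyond the amount of mRNA. In SMA total RNA 1209 genes were higher and 1160 lower of 13131 tested (9.21% and 8.83%). Over 12914 genes the polysomal and total changes had a Pearson's r of 0.839, again a description. The labels do not say whether same-numbered libraries of the fractions came from 1 brain, in which case the changes would share mice. The interaction of stage and fraction, the change in translation efficiency (TE), gave 0 of 13063 genes at an adjusted p under 0.05 (0%, smallest adjusted p = 0.8), and 588 genes (4.5%) at an unadjusted p under 0.05, 3.28% higher and 1.22% lower. Without SMA total day 5 replicate 2 the counts were 23 higher and 75 lower. Synaptic vesicle genes had a median of 0.55 on polysomes and 0.35 in total RNA, postsynaptic genes 0.47 and 0.25, and channel genes 0.34 and 0.09. Respiratory chain genes had 0.36 and 0.64. At an unadjusted p under 0.05 the interaction held 3, 3, 4 and 2 members of these lists, with 32, 23, 34 and 78 tested on polysomes. Their median transcript lengths were 4242, 5673, 6274 and 1135 bases. The bin of the shortest transcripts had medians of 0.07 on polysomes and 0.16 in total RNA, and that of the longest −0.04 and −0.15. The part of length was not tested. Cdk5r2 changed by 1.88 in total RNA, Vamp2 by 1.13 and Mt1 by 2.17, each called there as well. Hes5, a Notch target of progenitors, changed by 0.90 on polysomes and 0.19 in total RNA, a difference of 0.71 that did not pass after adjustment.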

How the data were processed

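Gene expression was measured by RNA-seq of total cytoplasmic RNA and POL-seq of polysomal RNA (stranded total RNA libraries). The authors aligned reads to GRCm38.p4 with TopHat2 2.0.14 and the Gencode M6 annotation and deposited FPKM values computed with Cufflinks 2.2.1, 1 value per gene and library and no counts. FPKM is scaled within each library, so a feature that takes a large share lowers all others, and the depth behind a value is unknown.

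Groups were taken from the sample labels. Values were analysed as log2(FPKM + 0.1) with R 4.3.3 and limma 3.58.1 (lmFit, eBayes with trend, two-sided, Benjamini-Hochberg adjustment over all tested genes), for nuclear protein-coding genes whose mean reached 1 FPKM and that were above 0 in every library of a fit. Log2 changes are on this scale and understate changes of low genes; errors are SE unless stated. The 2 interactions were fitted over 10 libraries each. Scripts were tested on simulated data. Members, gene lists (40, with 1108 genes) and motifs were chosen with earlier results of these data known. Named genes are the 12 with the largest change in each direction (called, mean of at least 5 FPKM, days not overlapping), up to 3 called genes per list and direction (or 2 by level) and Smn1; others were chosen after their values were seen. Some genes that the rule gives are not reported here.

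Alternatives were pseudocounts of 1 and 0.01, other filters, all gene types, median scaling, quantile normalization, no trend, a robust fit, other thresholds, a length correction (lowess, span 0.3), a replicate block and leaving out each library; a joint length and GC correction was added after seeing the data. Lengths came from the longest Gencode M21 transcript (99.75% of genes). With 1 library left on a day, that library is assumed to vary like the others. Replicate numbers did not pair the days (correlations of deviations −0.109 and 0.155). Same-numbered polysomal and total SMA libraries had correlations of 0.309 to 0.5 at day 7 and 0.184 at day 5. A day 5 group of 2 libraries gives only 1 such value, since its deviations mirror each other. The labels do not say that these libraries are 1 brain, and the replicate block left the comparison of fractions at 0 genes.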

Additional observations from a re-analysis of the deposited data

How the results depend on the processing

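The direction of every named gene that passed the threshold was the same under each leave-out. Hbb-bs (−0.01) was 0.10 with the replicate block and −0.62 to 0.60 in the leave-outs, and Ttr (−0.03) was 0.0896 with the block and −0.12 to 0.0896 in the leave-outs. Neither gene was called. Of 190 named genes past the threshold, 98 kept their call in every leave-out and 87 lost it without day 5 replicate 1.

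Pseudocounts, filters, gene types, scalings, variance models and the length corrections left the counts of genes higher and lower at day 7 within 1.5 times of 2358 and 1846. Requiring a log2 change of 1 gave 281 and 83, an unadjusted p 2806 lower genes, and leaving out a library 1020 to 1966 higher and 387 to 1215 lower genes. The replicate number did not pair the days by its labels or its correlations, and as a replicate block it gave 1858 higher and 1120 lower genes. The interaction with genotype went from 0 genes to 48 higher and 10 lower with the replicate block, to 0 to 342 higher and 0 to 132 lower in the leave-outs, and to 1066 and 737 at an unadjusted p. With values of 0 allowed, 67 genes were lower. Of these, 59 were listed at 0 in both control day 5 libraries, and 57 lay in 1 deposited locus (chromosome 8, 119910360 to 124345724). The interaction with fraction went from 0 to 3 higher with values of 0 allowed, 0 to 23 higher and 0 to 75 lower in the leave-outs, and 429 and 159 at an unadjusted p. The cause of these moves was not tested. With 2 libraries at day 5, that group's spread rests on 1 difference, and FPKM values carry no counts from which the depth of a gene could be read.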
